A study of Homo sapiens with 62 samples.

Results

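Genes of DNA replication and S phase were examined across 20 RNA-seq libraries of GM12878, a human lymphoblastoid line made by infecting B cells with Epstein-Barr virus. The group held 41 genes out of the 55040 rows of each deposited table. They were taken by symbol, and each symbol had 1 row. They comprised 8 genes of origin licensing, 6 of helicase activation, 6 of the sliding clamp and its loader, 5 of the polymerases and primase, 3 of single-strand binding, 2 of Okazaki fragment maturation, 5 of nucleotide supply, 3 of G1/S cyclins and licensing control, and 3 of chromatin maintenance and histone mRNA. The study prepared SMART-seq libraries of GM12878 from picked cells, from pools and from diluted RNA. To assess technical variation it also divided pools of 10 cells into 10 parts and handled each part like a single cell. Those splits are the libraries described here, and the other 42 of the 62 samples were not analysed here.

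The splits formed 2 sets. The numbered set held 10 libraries whose titles count the splits from 1 to 10. The unnumbered set held 10 libraries whose titles give a library number but no split number, namely 232, 233 and 246 to 253. Of these titles 9, all but that of split 247, also carry a remark that a later series supersedes the library, and 0 of the 10 numbered titles do. The data of that later series were not used here, and the remark follows the sets so closely that its part in a difference and that of the set cannot be told apart. Both sets were poly(A) RNA of the same line with no treatment named, with cells picked by micropipette, cDNA made with a SMARTer kit and libraries made with Nextera tagmentation, per the labels' protocols. No condition was named that separates the sets, and whether a set is 1 pool is not said in the labels. The laboratory experiment numbers of numbered splits 5 to 8, called run a here, lie apart from those of the other 16 libraries, and no label calls them a batch. Splits of 1 pool share the RNA of the same cells, so the p-values below measure the spread between splits and not the spread between cultures.

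Replication in human cells begins with licensing, in which ORC, CDC6 and CDT1 load the MCM2 to MCM7 helicase onto origins, and CDC45, the GINS complex and MCM10 then turn that helicase into an active fork. Primase and polymerase alpha start each strand, polymerases delta and epsilon extend it on the PCNA clamp that the RFC complex loads, RPA coats the unwound strand, and FEN1 and LIG1 finish the lagging strand. Ribonucleotide reductase, thymidylate synthase, thymidine kinase and dUTPase keep the nucleotide pools supplied, and many of these genes are transcribed at the start of S phase under E2F factors, so that their transcripts are known to be uneven between the cells of a growing culture.

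Estimated depth, recovered from the confidence bounds of 11 mitochondrial protein genes, was 11.8 to 20.6 megafragments (M) in the numbered splits. In the unnumbered splits it was 7.79 to 38.7 M, apart from 0.128 M in split 247, where 3 fragments on a transcript of 1 kilobase already come to 23.5 FPKM (fragments per kilobase of transcript and mapped megafragment). In the other 19 splits the same 3 fragments came to between 0.0775 and 0.385 FPKM. Genes at 1 FPKM or more numbered 3771 to 7671 in the numbered splits and 2942 to 4792 in the unnumbered splits, and mitochondrial rows held 3.37 to 6.32% and 6.18 to 8.17% of the summed FPKM. All 7 B cell markers reported reached 1 FPKM in at least 1 split, and MS4A1, CD74 and HLA-DRA did so in all 20. The others were patchy, with CD79A at 1 FPKM or more in 14 splits and CD79B, PAX5 and CD22 in 11 each. Of the markers of other cell types, the erythroid genes, CD3D, CD3G, CD8A, CD14, LYZ, S100A8, FCGR3A, KRT18 and KRT19 stayed below 1 FPKM in all 20 splits. TRAC, a T cell receptor constant gene, reached 1 FPKM in 17 splits, CSF1R, a myeloid receptor, in 18, CD2 in 7, CD3E in 3, and EPCAM and KRT8 in 1 each. Their part in the results was not tested. The summed B cell markers were 7573 to 12990 FPKM in the numbered splits and 3855 to 6368 FPKM in the unnumbered splits.

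Binding letters of the E2F factors stood in the promoters of many of these genes. The search covered the 250 bases before each RefSeq transcript start (build GRCh38.p14, which is not stated to be the build of the deposited files) for TTTCCCGC, TTTCGCGC, TTTGCCGC and TTTGGCGC on both strands, matches of which may overlap on opposite strands. RefSeq promoters were found for 35 of the 41 genes. None was found for MCM4, MCM5, GINS4, RPA2, RPA3 and CCNE2, so these genes were not searched. A match occurred in 14 of those 35 genes (40%), or in 15 of their 48 promoters (31.3%), against 979 of all 35116 promoters (2.79%). The 14 genes were CDT1, DTL, DUT, GINS2, LIG1, MCM3, MCM6, MCM7, PCNA, POLA1, POLE, RFC3, TYMS and UHRF1. The letters CCAAT, or ATTGG on the other strand, occurred in 27 of the 48 promoters (56.25%), against 32.01% of all promoters, and in at least 1 promoter of 21 of the 35 genes. Shown 5′ to 3′ along the gene's strand, with the letters of 1 E2F match in capitals, are windows of licensing genes and of DUT. DUT was the only gene with such a match that passed the test described below. Both DUT windows come from the same promoter, and its other promoters held no match. MCM6 and MCM7 have further matches without a window here. In the MCM6 window a TTTGGCGC match overlaps the capitals and is left partly in lower case.
MCM3 (chr6:52284898-52284927, minus strand): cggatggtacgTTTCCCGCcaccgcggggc
MCM6 (chr2:135876511-135876540, minus strand): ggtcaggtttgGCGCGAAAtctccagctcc
MCM7 (chr7:100101566-100101595, minus strand): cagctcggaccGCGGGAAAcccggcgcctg
CDT1 (chr16:88803743-88803772, plus strand): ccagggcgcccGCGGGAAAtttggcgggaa
DUT, farther match (chr15:48332144-48332173, plus strand): gggcggggctgGCGGGAAAtttcggttttg
DUT, nearer match (chr15:48332159-48332188, plus strand): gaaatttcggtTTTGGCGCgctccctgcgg

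The whole 250 bases are shown for PCNA, the only tested gene of the group seen in every split, and for FEN1, the only one lower in the numbered set past the threshold. In PCNA the capitals mark 1 E2F match and 3 CCAAT matches, and in FEN1 neither set of letters was found. Another PCNA promoter (chr20:5119959-5120208, minus strand), not shown, held 0 E2F matches and 2 CCAAT matches.
PCNA (chr20:5126623-5126872, minus strand): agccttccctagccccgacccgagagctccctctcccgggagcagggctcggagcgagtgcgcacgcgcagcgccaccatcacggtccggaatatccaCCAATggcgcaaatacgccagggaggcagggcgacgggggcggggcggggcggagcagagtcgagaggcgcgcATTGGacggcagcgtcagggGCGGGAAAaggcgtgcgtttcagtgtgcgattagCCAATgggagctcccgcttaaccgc
FEN1 (chr11:61792661-61792910, plus strand): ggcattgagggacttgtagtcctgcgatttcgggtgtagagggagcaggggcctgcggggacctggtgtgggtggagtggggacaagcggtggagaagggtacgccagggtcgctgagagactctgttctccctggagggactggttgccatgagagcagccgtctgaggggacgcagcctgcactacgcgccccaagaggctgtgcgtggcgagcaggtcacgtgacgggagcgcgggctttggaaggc
A match describes letters in a window and was not tested as a binding site. Among the tested genes with a RefSeq promoter, the median log2 difference between the sets was -0.32 over the 13 genes with E2F letters and -0.81 over the 17 without.

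Most replication genes were present in some splits of a set and near 0 in others. Each set gives 410 values for the 41 genes. In the numbered set 61 of these were listed at 0, 104 lay above 0 and below 1 FPKM, 58 between 1 and 10 FPKM, and 187 at 10 FPKM or more. In the unnumbered set the same classes held 56, 83, 52 and 219 values. A numbered split thus held 24.5 ± 3.06 of the 41 genes at 1 FPKM or more (SD, n = 10, from 19 to 28), and an unnumbered split 27.1 ± 3.87 genes (SD, n = 10, from 17 to 31). The ranges overlapped. The 4 splits of run a held 25 to 26 genes and the other 6 numbered splits 19 to 28. As a share, this was 59.8% of the values in numbered splits and 66.1% in unnumbered splits, while over all tested rows it was 47.5% in numbered and 39.4% in unnumbered splits. An exact 0 in these files can be a failed estimate, so a value at or near 0 is described as listed, and not as absence of the transcript.

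**Figure D1:**
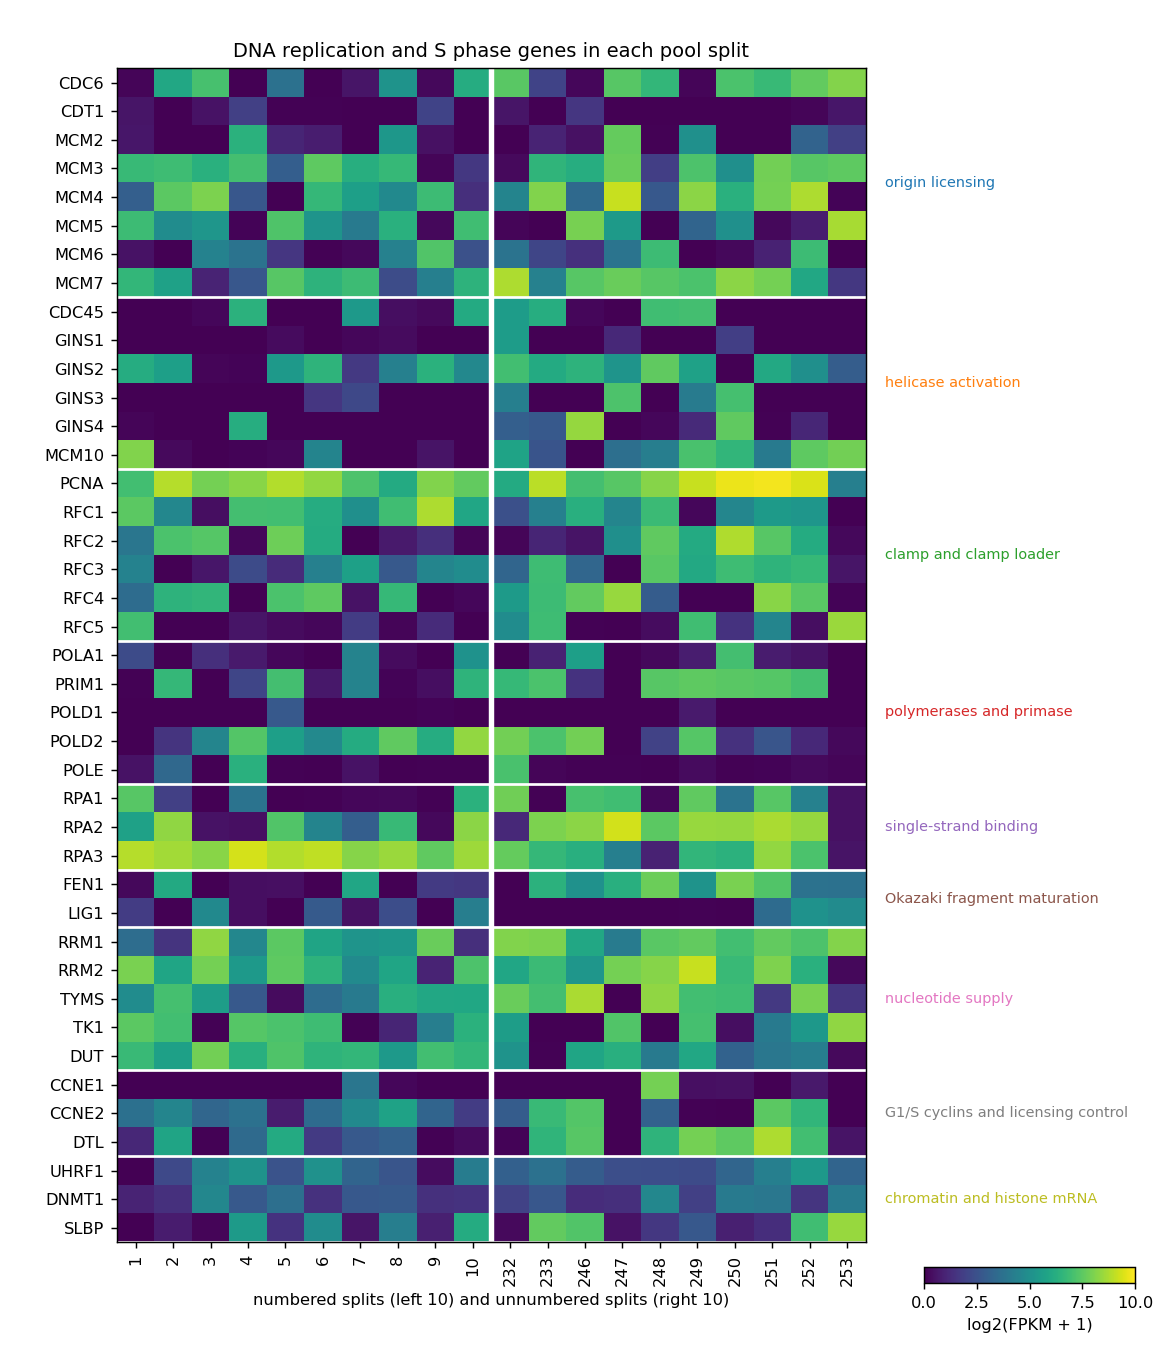
Level of each of the 41 genes (rows, grouped by role) in each split (columns, numbered splits left of the white line and unnumbered splits right of it), as log2(FPKM + 1) from dark (0) to yellow (10). PCNA is bright in all 20 columns, RPA3 and DUT are bright in the 10 numbered columns, and GINS1, CDT1 and POLD1 are dark in nearly all. The values of TK1 in numbered split 1, RFC4 in unnumbered split 249 and RRM1 in unnumbered split 253 are listed with a failed status.

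Values above detection were higher in the unnumbered splits. Those of 100 FPKM or more made up 74 of the 410 numbered values (18.05%) and 133 of the 410 unnumbered values (32.44%). Over all tested rows such values made up 14.57% in numbered and 15.67% in unnumbered splits. Among values of 10 FPKM or more the median was 80.5 FPKM in numbered splits and 127 FPKM in unnumbered ones, and over all tested rows it was 77.2 and 104 FPKM. Summed over the 41 genes, the numbered splits held 2154 ± 484 FPKM and the unnumbered splits 3504 ± 718 FPKM (SD, n = 10 each). Fewer cells in S phase and less of these transcripts per cell cannot be told apart in such pools.

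The group's share of each library's summed FPKM separated the sets. It was 0.145 ± 0.0198% in the numbered splits (SD, n = 10, from 0.110 to 0.177%) and 0.288 ± 0.0566% in the unnumbered splits (SD, n = 10, from 0.202 to 0.390%). The lowest unnumbered split, 253, lay above the highest numbered split, 5. This is a description with no test, because the genes were chosen with results of these data known. The separation was also present without run a (0.135 to 0.168% against 0.202 to 0.390%) and without PCNA and RPA3 (0.0707 to 0.120% against 0.196 to 0.291%). Without TK1, RFC4 and RRM1, each of which had a failed value in 1 library, the ranges met at the edge, at 0.106 to 0.154% in numbered splits and 0.153 to 0.349% in unnumbered splits. Depth, the mitochondrial share and the number of genes seen also differ between the sets, as given above, and their part in this difference was not tested.

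**Figure D2:**
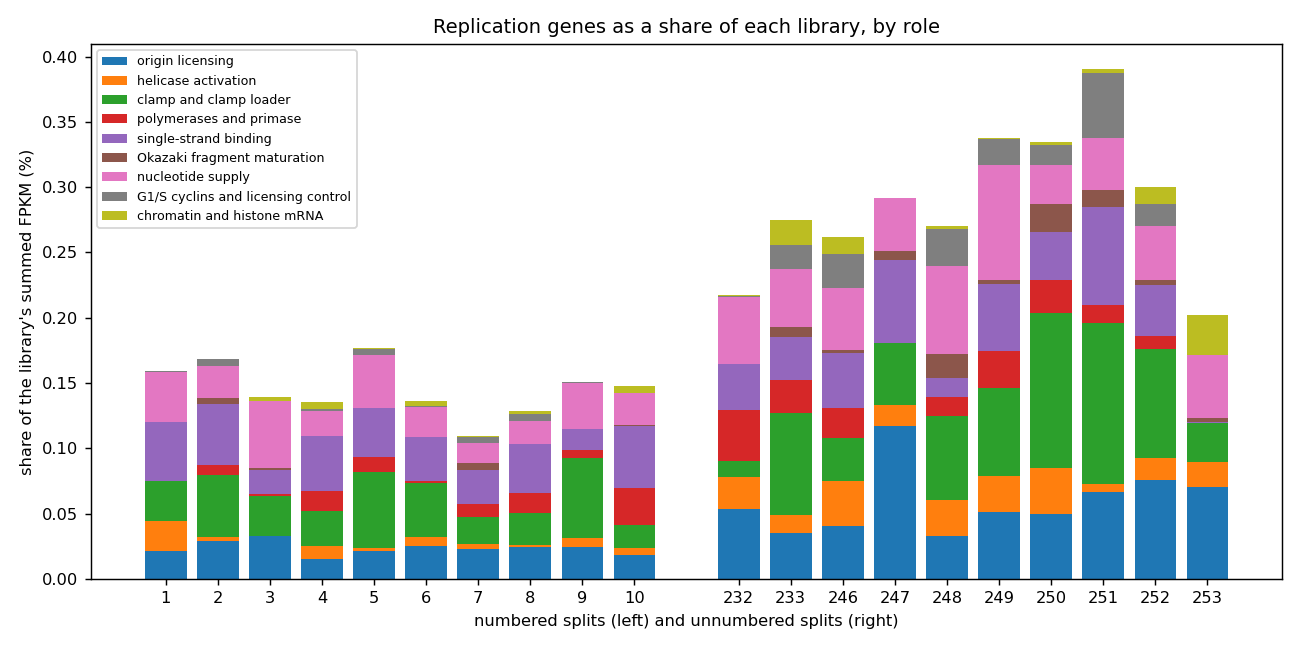
Summed FPKM of the 41 genes as a percentage of each library's summed FPKM, stacked by role, with numbered splits at the left and unnumbered splits at the right. Every numbered bar ends between 0.110 and 0.177% and every unnumbered bar between 0.202 and 0.390%, with licensing, clamp, single-strand binding and nucleotide supply genes making up most of each bar.

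Gene by gene, few differences passed. The comparison used log2(FPKM + 1) in limma, with Benjamini-Hochberg adjustment over all 10506 tested rows and a threshold of 0.05, and a log2 difference on this scale understates the change of low genes. Of the 41 genes 36 entered it. CDT1 and POLD1 averaged below 1 FPKM over the 20 splits, and TK1, RFC4 and RRM1 had a failed value in a library. Of the 36 genes 3 (8.33%) passed, against 5.31% of all tested rows. RPA3 and DUT were higher in the numbered splits, 5.56% of the 36 against 3.93% of all tested rows, and FEN1 was lower, 2.78% against 1.38%. With no adjustment 5 of the 36 (13.9%) had p of 0.05 or less, against 16.3% of all tested rows. By an exact rank-sum test with the same adjustment RPA3 and DUT passed, 5.56% against 9.07%. These shares are near those of all rows. No gene of the 36 had ranges that failed to overlap, whereas 1.65% of all tested rows lay wholly higher and 0.352% wholly lower in the numbered splits.

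Below the threshold, the differences leaned one way. The log2 difference was negative, meaning lower in the numbered splits, for 28 of the 36 genes (77.8%), against 40.1% of all tested rows. Among the 28 were GINS1 and GINS3, which entered the test through the unnumbered splits alone. The filter on the mean thus favoured their sign. The median of the 36 genes was -0.75, while the median of all tested rows was 0.35. Without run a it was -0.90 with all rows at 0.12, and after rescaling by size factors -0.90 with all rows at 0.19. Between 28 and 29 genes were negative in these fits and with values rescaled to TPM. Of all tested rows, 47.6% were negative without run a and 44.6% with size factors. With 1 split left out at a time, 25 to 29 of the 35 or 36 genes tested were negative. The median standard error of the 36 genes was 1.09, so most single genes could not be placed on either side of 0.

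**Figure D3:**
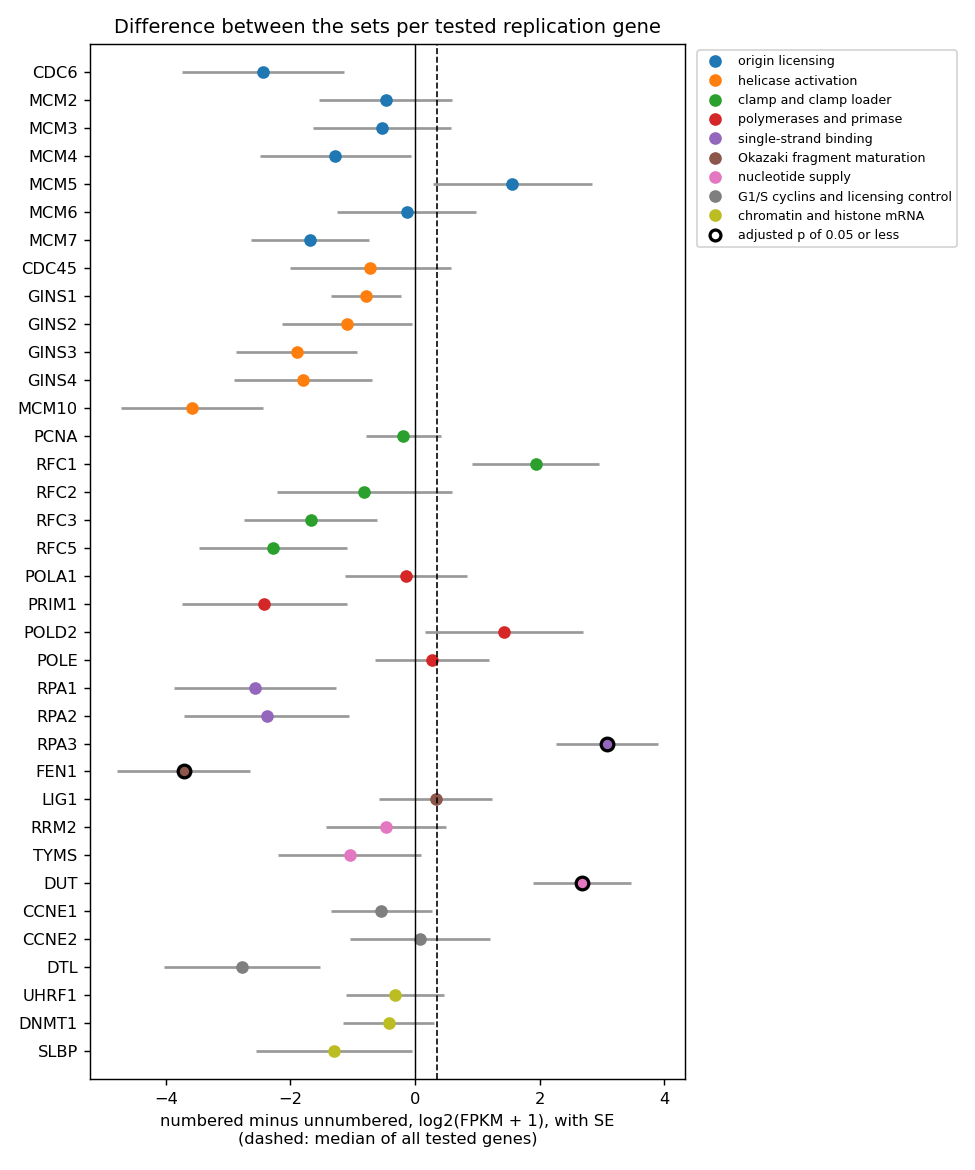
Log2 difference of each tested replication gene, numbered minus unnumbered splits, with its standard error, coloured by role. Points left of the solid line are lower in numbered splits, and the dashed line marks the median of all tested rows at 0.35. Circled points, RPA3 and DUT at the right and FEN1 at the left, are those with a limma adjusted p of 0.05 or less.

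Origin licensing genes were abundant but patchy. Their values reached 1 FPKM in 51 of 80 cases (63.8%) in numbered splits and 52 of 80 (65.0%) in unnumbered splits, and their means summed to 343 and 724 FPKM. None of the 7 tested genes passed. MCM4, a helicase subunit and the most abundant licensing gene, ranged from a listed 0 through a median of 37.3 to 263 FPKM in numbered splits and from 0.0598 through 160 to 565 FPKM in unnumbered splits. The ranges overlapped, although unnumbered splits 233, 247, 249 and 252 lay above the highest numbered value. The log2 difference of MCM4 was -1.28 (SE 1.21, limma adjusted p = 0.605). CDC6, the loader ATPase, had a lowest, median and highest value of 0.00102, 6.34 and 135 FPKM in numbered splits and of 0.104, 126 and 279 FPKM in unnumbered splits. It reached 1 FPKM in 5 numbered and 8 unnumbered splits, for a log2 difference of -2.44 (SE 1.30, limma adjusted p = 0.359).

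The helicase subunits, which act as a hexamer, rarely appeared together. All 6 reached 1 FPKM in 1 numbered split, number 8, and in 1 unnumbered split, 247. In split 247 that threshold means little, since MCM6 stood at 13.3 FPKM there, under the 23.5 FPKM of 3 fragments on a 1 kilobase transcript. MCM7 reached 1 FPKM in 9 numbered splits and all 10 unnumbered splits, MCM3 in 9 and 9, and MCM4 in 9 and 9. MCM2 did so in only 3 numbered and 4 unnumbered splits and MCM6 in 6 and 6. MCM5 did so in 8 numbered splits, from 0.0609 through a median of 35.9 to 149 FPKM, and in 5 unnumbered splits, from a listed 0 through 4.51 to 407 FPKM. The highest of these was split 253, in which MCM4 stood at 0.0598 FPKM and MCM6 was listed at 0. MCM5 differed by 1.56 on the log2 scale (SE 1.28, limma adjusted p = 0.578). CDT1, the partner of CDC6 in loading, stayed below 1 FPKM in 17 of the 20 splits, with 3.06 FPKM in numbered split 9 as its highest value.

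Helicase activation genes were the role seen least in the numbered splits. They reached 1 FPKM in 16 of 60 cases (26.7%) there and in 35 of 60 cases (58.3%) in unnumbered splits. A numbered split held 0 to 3 of the 6 genes and an unnumbered split 2 to 6. Without run a the shares were 22.2 and 58.3%, and without splits 9, 247 and 253 they were 27.8 and 60.4%. All 6 genes had a negative log2 difference, with a median of -1.44, and they were negative under each rescaling run. For GINS1 and GINS3, which entered the test through the unnumbered splits alone, the filter favoured that sign. None of the 6 passed the test.

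MCM10, which helps the helicase to start moving, was the nearest. It stood at 275 FPKM in numbered split 1 and 21.6 FPKM in split 6, and at 0.449 FPKM or less in the other 8 numbered splits, 3 of them listed at 0. In the unnumbered set 9 of 10 splits lay between 5.04 and 232 FPKM, with a median of 36.9 FPKM over the set, and split 246 stood at 0.0007 FPKM. One of the 9, split 247 with 11.4 FPKM, had a lower bound of 0, so at that depth detection is uncertain. The log2 difference was -3.58 (SE 1.14, limma adjusted p = 0.0712), and the ranges overlapped through numbered split 1. It passed without numbered split 1 or unnumbered split 246, and not without any of the other 18. GINS2 was the steadiest of the GINS subunits, at 1 FPKM or more in 8 numbered and 9 unnumbered splits. GINS1 never reached 1 FPKM in a numbered split and did so in 3 unnumbered splits. The 3 include split 247 with 1.23 FPKM, under the 23.5 FPKM of 3 fragments on a 1 kilobase transcript there, so that detection is uncertain. GINS1 and GINS3 averaged below 1 FPKM over the numbered splits, so they entered the test through the unnumbered splits alone. GINS3 reached 1 FPKM in 2 and 4 splits, GINS4 in 1 and 6, and CDC45, their partner in the active helicase, in 3 and 4. A row of the opposite strand, RP11-360L9.7, overlaps GINS4 at means of 12.7 FPKM in numbered and 26.3 FPKM in unnumbered splits, and reads of the 2 strands may not be separable here.

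PCNA, the sliding clamp, was seen in every split. It ranged from 67.3 through a median of 257 to 472 FPKM in numbered splits and from 19.02 through 394 to 899 FPKM in unnumbered splits. All 20 values were at 10 FPKM or more, with a coefficient of variation (CV) of 0.522 over numbered splits and 0.782 over unnumbered splits. PCNA was the only tested gene of the 36 (2.78%) at 1 FPKM or more in all 20 splits, against 7.77% of all tested rows. The lowest value came from unnumbered split 253, the split with fewest genes of the group, and the 4 highest values, 575 to 899 FPKM, from unnumbered splits 249 to 252. Between the sets PCNA differed by -0.19 on the log2 scale (SE 0.60, limma adjusted p = 0.883). The row covers chromosome 20 from 5095599 to 5107272 on the minus strand in the files' own coordinates.

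The loader of the clamp behaved unevenly. RFC1, its large subunit, reached 1 FPKM in 9 numbered and 8 unnumbered splits, with means of 117 and 33.7 FPKM, and the log2 difference was 1.94 (SE 1.02, limma adjusted p = 0.352). The 8 include split 247, where its 22.5 FPKM had a lower bound of 0, so at that depth detection is uncertain. RFC5 was near 0 in most numbered splits. Its lowest, median and highest values were a listed 0, 0.178 and 123 FPKM in numbered splits and a listed 0, 12.1 and 355 FPKM in unnumbered splits, for a log2 difference of -2.28 (SE 1.19, limma adjusted p = 0.348). By the mean of the CVs of both sets, RFC2 had the second highest spread of the 15 tested genes at 30 FPKM or more in both, with a CV of 1.36 in numbered and 1.45 in unnumbered splits. It ran from 0.000312 through 7.96 to 219 FPKM in numbered splits and from 0.0909 through 49.5 to 444 FPKM in unnumbered splits, a log2 difference of -0.81 (SE 1.4, limma adjusted p = 0.775). RFC3 reached 1 FPKM in 8 splits of each set. RFC4 did so in 6 numbered and 7 unnumbered splits, and its end overlaps EIF4A2 on the opposite strand.

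Polymerase and primase genes were the least visible role in the unnumbered splits. Their values reached 1 FPKM in 21 of 50 cases (42.0%) in numbered splits and 19 of 50 (38.0%) in unnumbered splits. The large catalytic subunits were rarely seen: POLD1, of polymerase delta, reached 1 FPKM in 1 numbered and 0 unnumbered splits, and POLE, of polymerase epsilon, in 2 and 1. POLA1, of polymerase alpha, did so in 4 and 2. In contrast POLD2, an accessory subunit of polymerase delta, did so in 9 numbered and 8 unnumbered splits. It ran from a listed 0 through a median of 59.2 to 334 FPKM in numbered splits and from a listed 0 through 4.09 to 233 FPKM in unnumbered splits, where 4 splits held 144 to 233 FPKM and the others 5.23 FPKM or less. This gave a log2 difference of 1.43 (SE 1.27, limma adjusted p = 0.605). Other rows lie within POLE and POLA1, so the levels of both are uncertain. POLE contains ANKLE2 and GOLGA3 on the same strand. POLA1 contains SCARNA23 on the same strand, at means of 221 FPKM in numbered and 154 FPKM in unnumbered splits.

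PRIM1, the catalytic primase subunit, was either high or near 0 in most splits of both sets. In numbered splits the lowest, median and highest values were a listed 0, 1.91 and 128 FPKM, and 4 splits held 21.4 FPKM or more. In unnumbered splits they were a listed 0, 137 and 183 FPKM, and 7 splits held 104 FPKM or more. PRIM1 differed by -2.42 on the log2 scale (SE 1.32, limma adjusted p = 0.375). The end of PRIM1 touches NACA on the same strand, a row that averaged 2727 FPKM in numbered and 1793 FPKM in unnumbered splits, so a part of the PRIM1 signal may be uncertain.

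Of the 3 subunits of RPA, the complex that coats single-stranded DNA, 1 passed. RPA3, the smallest subunit, was higher in the numbered splits. It ran from 188 through a median of 383 to 653 FPKM there and from 0.433 through 89.99 to 330 FPKM in unnumbered splits. All 10 numbered splits were high, and 8 of the 10 unnumbered splits lay below the lowest of them, with splits 232 and 251 as the exceptions. The mean log2 value was 8.58 in numbered and 5.49 in unnumbered splits, a log2 difference of 3.08 (SE 0.82, limma adjusted p = 0.0226). Its CV over numbered splits, 0.329, was the lowest of the group, against 0.958 over unnumbered splits. It passed with each of the 20 splits left out in turn. The limma adjusted p was 0.144 without run a, 0.0893 with run a as a covariate, 0.059 after rescaling by size factors and 0.0719 with no filter on the mean.

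RPA1 and RPA2, the larger subunits, did not pass. RPA2 averaged 96.7 FPKM in numbered splits and 283 FPKM in unnumbered splits, with a log2 difference of -2.38 (SE 1.32, limma adjusted p = 0.385). RPA1 reached 1 FPKM in 4 numbered and 7 unnumbered splits, with a log2 difference of -2.57 (SE 1.30, limma adjusted p = 0.327). The RPA3 row covers chromosome 7 from 7676149 to 7758238 on the minus strand. It overlaps AC006465.3 on the opposite strand, which averaged 19.6 FPKM in numbered and 3.93 FPKM in unnumbered splits, and the labels do not say that strand was kept.

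FEN1, the flap endonuclease that trims Okazaki fragments, was lower in the numbered splits. It stood at 67.1 FPKM in numbered split 2 and 58.9 FPKM in split 7, and at 2.23 FPKM or less in the other 8, with 3 listed at 0 and a set median of 0.308 FPKM. In the unnumbered set 9 of 10 splits lay between 12.4 and 250 FPKM, with a set median of 55.8 FPKM, and split 232 was listed at 0. The log2 difference was -3.71 (SE 1.07, limma adjusted p = 0.0393). With splits left out in turn it passed without numbered split 2, 7 or 9 or unnumbered split 232, 252 or 253, and did not pass without any of the other 14 (limma adjusted p from 0.0545 to 0.0752). Of 12 other settings it passed in 4, with an adjusted p of 0.121 without run a and 0.0814 by the exact rank-sum test. FEN1 covers chromosome 11 from 61560109 to 61564716 on the plus strand. Its start overlaps C11orf10 on the opposite strand, at means of 679 FPKM in numbered and 537 FPKM in unnumbered splits. From 61560452 to its end the FEN1 row also lies within FADS2, on the same strand. FADS2 averaged 21.2 FPKM in numbered and 2.36 FPKM in unnumbered splits, the opposite direction to FEN1. How reads were divided between FEN1 and FADS2 was not tested, so the level of FEN1 is uncertain. LIG1, the ligase that closes the remaining nick, was low in both sets, at 1 FPKM or more in 5 numbered and 3 unnumbered splits and at most 25.9 and 33.6 FPKM.

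**Figure D4:**
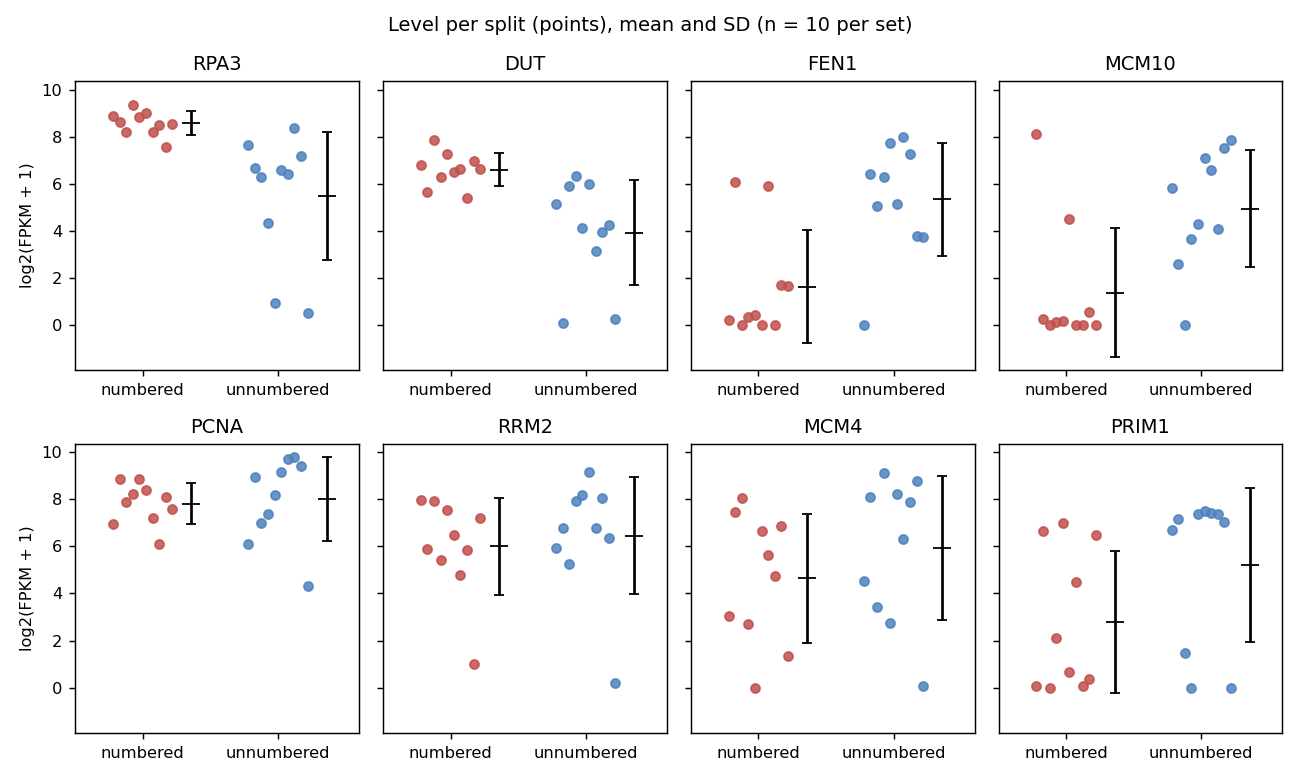
Level per split as log2(FPKM + 1) for RPA3, DUT, FEN1, MCM10, PCNA, RRM2, MCM4 and PRIM1, with numbered splits at the left and unnumbered splits at the right of each panel. Bars give the mean and SD over 10 splits. RPA3 and DUT lie in a narrow high band in the numbered set and FEN1 and MCM10 lie near 0 in 8 numbered splits each, while MCM4 and PRIM1 spread over nearly the whole axis in both sets.

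Nucleotide supply genes were the role seen most often in the numbered splits, in 46 of 50 cases (92.0%), and in 42 of 50 cases (84.0%) in unnumbered splits, each with 1 failed value counted as seen. DUT, the dUTPase that keeps uracil out of DNA, was higher in the numbered splits. It ran from 41.4 through a median of 97.6 to 230 FPKM there and from 0.0555 through 17.3 to 78.8 FPKM in unnumbered splits. Of the unnumbered splits 7 lay below the lowest numbered value, and splits 246, 247 and 249 lay above it. The value of split 247, 78.8 FPKM, had a lower bound of 0, so at that depth it is uncertain. The log2 difference was 2.68 (SE 0.79, limma adjusted p = 0.0455). With splits left out in turn it passed without numbered split 8 or unnumbered split 232, 246, 247 or 249, and did not pass without any of the other 15 (limma adjusted p from 0.0517 to 0.0846). Of 12 other settings it passed in 3, with an adjusted p of 0.00969 by the exact rank-sum test and 0.168 by limma without run a. DUT covers chromosome 15 from 48623208 to 48635570 on the plus strand, and its pseudogene rows, DUTP1 to DUTP8, were all listed at 0.

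Both subunits of ribonucleotide reductase, which makes deoxynucleotides, were seen in nearly all splits. RRM1, the large subunit, reached 1 FPKM in all 10 numbered splits, from 1.57 through 36.6 to 325 FPKM, and in the 9 unnumbered splits with a usable value, from 16.8 through 175 to 271 FPKM. RRM1 was not tested, because its value in split 253 is a failed estimate, and its 16.8 FPKM in split 247 had a lower bound of 0. RRM2, the small subunit and the most abundant tested supply gene, ran from 0.998 through 73.1 to 252 FPKM in numbered splits and from 0.155 through 109 to 574 FPKM in unnumbered splits. Its lowest values came from numbered split 9 and unnumbered split 253, and every other split held 26.6 FPKM or more. RRM2 differed by -0.46 on the log2 scale (SE 0.96, limma adjusted p = 0.818). TYMS, thymidylate synthase, reached 1 FPKM in 9 splits of each set, with a log2 difference of -1.05 (SE 1.15, limma adjusted p = 0.628). TK1, the salvage thymidine kinase, did so in 7 of the 9 numbered splits with a usable value and in 6 unnumbered splits.

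Genes that time entry into S phase were patchy in both sets. DTL, the ubiquitin ligase receptor that marks CDT1 for destruction, ran from 0.0307 through a median of 4.10 to 68.5 FPKM in numbered splits and from about 0 through 108 to 436 FPKM in unnumbered splits. In 7 unnumbered splits it held 90.9 FPKM or more, a level no numbered split reached, and 3 unnumbered splits were below 1 FPKM. The log2 difference was -2.77 (SE 1.25, unadjusted limma p = 0.0361, adjusted p = 0.261). The row contains RP11-565J7.3, a processed pseudogene of the opposite strand at means of 1077 FPKM in numbered and 492 FPKM in unnumbered splits, so its level is uncertain. Cyclin E was seen unequally. CCNE2 reached 1 FPKM in 9 numbered and 6 unnumbered splits, and CCNE1 in 1 of each set, which were numbered split 7 with 14.2 FPKM and unnumbered split 248 with 237 FPKM. The ends of CCNE2 overlap INTS8 and NDUFAF6 on the opposite strand.

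Genes of chromatin maintenance were low but seen in most splits. UHRF1, which finds hemimethylated DNA behind the fork, reached 1 FPKM in 8 numbered splits and all 10 unnumbered ones, and DNMT1, the maintenance methyltransferase it guides, in 9 and 10. In split 247 their values of 4.25 and 1.52 FPKM had lower bounds of 0, so at that depth detection is uncertain. Their highest values were 34.1 and 40.1 FPKM for UHRF1 and 23.7 and 23.7 FPKM for DNMT1 in numbered and unnumbered splits. SLBP, which binds the stem-loop of replication-dependent histone mRNA, was often near 0. It ran from 0.00029 through 1.30 to 70.2 FPKM in numbered splits and from 0.177 through 3.87 to 350 FPKM in unnumbered splits, with a log2 difference of -1.30 (SE 1.25, limma adjusted p = 0.605).

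Detection rose with level but was not fixed by it. PCNA, RPA3, RRM1 and DUT were seen in all 10 numbered splits, and of the tested genes these were 3 of 36 (8.33%), against 13.2% of all tested rows. MCM7, PCNA, UHRF1 and DNMT1 were seen in all 10 unnumbered splits, 4 of the 36 tested genes (11.1%) against 10.0% of all tested rows. Of these UHRF1 and DNMT1 had means of 11.5 and 8.67 FPKM, with the limit in split 247 given above. MCM5 averaged 73.8 FPKM over the unnumbered splits and was seen in 5 of its splits. The order of the 41 means was similar in the sets (Spearman's rho 0.737 over 41 genes, as a description; genes share the libraries). The spread between splits lay on both sides of that of other genes of the same level. Among genes with no failed value, 18 of the 34 with a numbered mean of 1 FPKM or more had a CV below the median CV of all rows in their range of mean FPKM, as did 18 of 36 in unnumbered splits. Among the 15 tested genes with a mean of 30 FPKM or more in both sets, RPA3 and PCNA had the lowest mean CV, and RFC2 and MCM5 the highest, MCM5 with 0.929 in numbered and 1.89 in unnumbered splits.

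**Figure D5:**
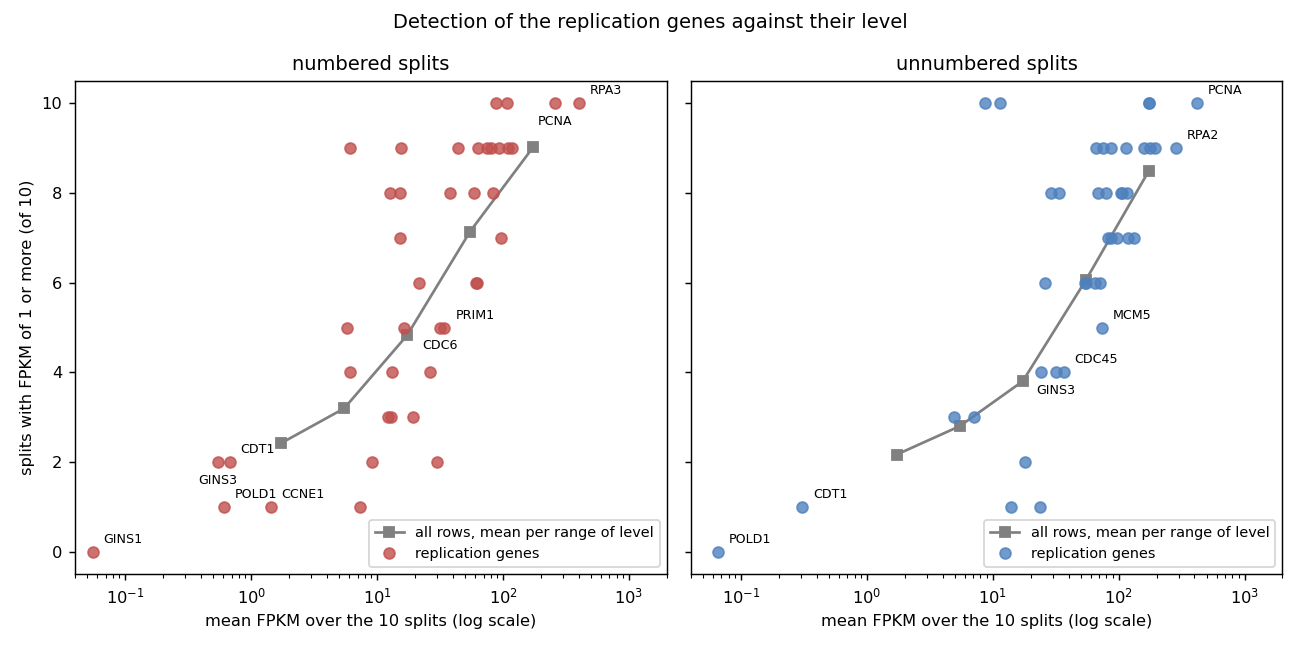
Number of splits in which each of the 41 genes reached 1 FPKM, out of 10, against its mean FPKM over the splits of the set (log scale), in numbered (left panel) and unnumbered splits (right panel). Grey squares give the mean over all rows with a usable status, tested or not, in ranges of the set's mean from 1 to below 300 FPKM. Replication genes lie on both sides of the grey line in both panels, with PCNA at 10 splits in each.

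Other genes of the same processes gave few differences. From 4 further lists, chosen by function but with earlier results of these data known, 73 of 77 genes were tested. None passed as higher in the numbered splits and 1 (1.37%) as lower (limma), against 3.93% and 1.38% of all tested rows. At an unadjusted p of 0.05 or less there were 8 (11%), against 16.3% of all tested rows. The median log2 difference was -0.14 over 33 other replication genes, -0.35 over 14 other nucleotide supply genes, -0.20 over 15 genes of E2F, RB and S phase entry, and -0.34 over 11 genes of replication-coupled chromatin assembly. The gene that passed was E2F8, an E2F family repressor, which entered the test only through the unnumbered splits. It was at most 1.011 FPKM in numbered splits and listed at 0 in 5 of them, and in unnumbered splits it had a median of 26.3 and a highest value of 101 FPKM with 3 listed at 0 (log2 difference -3.20, SE 0.96, limma adjusted p = 0.0495). E2F8 passed without unnumbered split 233, 247, 248 or 251, and not without any of the other 16 (limma adjusted p from 0.0573 to 0.0889). Of 12 other settings it passed in 2, TPM and the mean filter of 10 FPKM, and its adjusted p reached 0.317 by the exact rank-sum test. The most abundant gene of each list did not pass. TOP2A, the type II topoisomerase, had medians of 68.5 FPKM in numbered and 156 FPKM in unnumbered splits (limma adjusted p = 0.418). NME1, a nucleoside diphosphate kinase, had medians of 423 and 937 FPKM (limma adjusted p = 0.753). CDKN1A, the p21 cyclin-dependent kinase inhibitor, had medians of 47.3 and 20.8 FPKM (limma adjusted p = 0.692), and NASP, a histone chaperone, 171 and 258 FPKM (limma adjusted p = 0.907).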

How the data were processed

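The deposited tables hold 1 FPKM value per gene and library with 2 confidence bounds and a status flag, per the file headers. The authors made the values with Cufflinks 2.0.2 after TopHat 1.4.1, as the submitters' processing notes list them. Their genome build is not given in the sources used, and coordinates are those of the files, counted from 1. FPKM is not a count, so depth was estimated from the bounds of 11 mitochondrial protein genes. Of 55040 rows, 5797 had status LOWDATA everywhere and 128 a FAIL in at least 1 library. Of the 49115 left, 10506 with a mean of 1 FPKM or more over the 20 libraries were tested with limma 3.58.1 (R 4.3.3, trended variance) on log2(FPKM + 1), Benjamini-Hochberg over all of them, after a check on simulated data. No pair of libraries was identical. Python 3.11.15, numpy 2.4.6, scipy 1.17.1 and pandas 2.3.3 did the rest. A gene counted as seen at 1 FPKM or more.

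Values are given in full for genes past the threshold, for the most abundant gene and the gene of smallest p in each role, and for the 2 genes each of lowest and highest CV among those at 30 FPKM or more in both sets; 15 tested genes met this. Other genes were described after their values were seen. The genes, lists and roles were chosen with earlier results of these data known. Promoters came from RefSeq (GRCh38.p14). Gene types and transcript lengths came from GENCODE 29. Alternatives covered the pseudocount, the filter, the scaling, transcript length, run a, splits left out, the rank-sum test and protein-coding rows. One B cell marker is not reported here.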

Additional observations from a re-analysis of the deposited data

Results flagged for a closer look

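Within sets of 10 splits, 16 of 86 groups of values held a split with too large a gap to the nearest other. The gap was taken as a share of the group's range, by Dixon's test at 95%. Single genes were tested on the log2(FPKM + 1) scale, and the count of genes seen and the share of library FPKM on their own scales. For normally distributed values chance flags about 1 in 20 groups. Many of these values were either near 0 or high, so 16 of 86 cannot be read against that rate. A lone high split was seen for CDT1 (2.02 FPKM in unnumbered split 246), GINS1 (45.1 FPKM in unnumbered split 232), GINS4 (73.7 FPKM in numbered split 4), RFC5 (123 FPKM in numbered split 1), POLD1 (numbered split 5 with 6.01 FPKM and unnumbered split 249 with 0.648 FPKM), POLE (numbered split 4 with 80.5 FPKM and unnumbered split 232 with 138 FPKM) and CCNE1 (numbered split 7 with 14.2 FPKM and unnumbered split 248 with 237 FPKM). A lone low split was seen for RFC1 (0.278 FPKM in numbered split 3), FEN1 (listed at 0 in unnumbered split 232), RRM1 (16.8 FPKM in unnumbered split 247, with the failed value of split 253 kept) and RRM2 (numbered split 9 with 0.998 FPKM and unnumbered split 253 with 0.155 FPKM). Unnumbered split 253 also held only 17 of the 41 genes at 1 FPKM or more. Of these groups, GINS4 and POLE share numbered split 4, GINS1, POLE and FEN1 share unnumbered split 232, and RRM2 shares split 253 with the count of genes seen. For POLD1 and CCNE1 the other splits of the set lay below 1 FPKM, as did all but splits 247 and 250 for GINS1.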

How the results depend on the processing

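The counts over all tested genes, 413 higher and 145 lower in numbered splits, were 706 and 247 by the exact rank-sum test, 229 and 90 over protein-coding genes, 263 and 96 without run a, 202 and 150 with size factors, and 337 and 219 with values rescaled to TPM. Leaving out 1 split gave 358 to 464 higher and 127 to 158 lower. Of the replication genes, 2 were higher: 1 was with TPM, the length trend removed, protein-coding rows, a pseudocount of 0.1, or without splits 9, 247 and 253, and 0 with no filter, run a as covariate, size factors, or without run a. The 1 lower gene became 2 with a mean filter of 10 FPKM and 0 by rank-sum, with no filter, protein-coding rows, a pseudocount of 10, run a as covariate, without run a, without split 247, and without splits 9, 247 and 253. Leaving out 1 split gave 1 to 2 higher and 0 to 1 lower. The other replication lists (1 gene) gave 3 with TPM, rank-sum and the mean filter of 10, 2 without splits 9, 247 and 253, 0 with the length trend removed, no filter, protein-coding rows and without run a, and 0 to 2 leaving out 1 split. E2F8 was among those called with TPM and the mean filter of 10, while rank-sum called DBF4, ADSL and CCNA2, a pseudocount of 0.1 DBF4, and a pseudocount of 10, run a as covariate and size factors ADSL. For these changes the cause was not tested, beyond fewer samples or other rows tested. PCNA turned to 0.00073 without numbered split 8 and 0.0091 without unnumbered split 251, and RRM2 to 0.098 without numbered split 9, within ranges over the left-out splits of -0.60 to 0.0091 and -1.15 to 0.098. The adjusted p ranged from 0.00356 to 0.144 for RPA3, 0.00752 to 0.127 for FEN1, 0.00969 to 0.168 for DUT and 0.00805 to 0.241 for MCM10.

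The median over the genes stayed negative (-0.95 to -0.49), as did the detection difference (-3.72 to -0.60 genes per split) and the difference in share (-0.177 to -0.129%). The alternatives for the share, and those leaving splits out of the detection count, were chosen after seeing the data. Summing the rows of a symbol gave no value, as each has 1 row. No paired analysis was possible because the sets share no replicate numbers. Depth limits split 247 most. The median standard error of the genes was 1.09 on the log2 scale, so changes of that size could not be resolved in single genes. Larger differences also failed to pass, such as -2.77 for DTL (limma adjusted p = 0.261).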

Other observations

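Several genes of the further lists stood just outside the threshold. DBF4, the regulatory subunit of the CDC7 kinase that fires origins, reached 1 FPKM in 4 numbered and 9 unnumbered splits, with medians of 0.0889 and 106 FPKM (log2 difference -3.71, SE 1.14, limma adjusted p = 0.0585). ADSL, an enzyme of purine synthesis, had medians of 52.6 FPKM in numbered and 177 FPKM in unnumbered splits (log2 difference -3.0, SE 0.96, limma adjusted p = 0.0713). CCNA2, cyclin A of S phase and G2, had medians of 3.42 and 37.5 FPKM (log2 difference -2.74, SE 0.91, limma adjusted p = 0.0880). POLE4, a small accessory subunit of polymerase epsilon, had medians of 111 FPKM in numbered and 0.285 FPKM in unnumbered splits (log2 difference 3.71, SE 1.34, limma adjusted p = 0.124), and POLE3, its partner, 0.0485 and 54.5 FPKM (log2 difference -3.0, SE 1.12, limma adjusted p = 0.144). These genes were chosen after their values were seen, and none passed, although DBF4, ADSL and CCNA2 did by the exact rank-sum test.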
